A study of Mus musculus with 24 samples.

Results

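The mitochondrial ribosome contains 2 ribosomal RNAs encoded in mitochondrial DNA. Its proteins are all encoded in the nucleus, most of them under the symbols Mrps (small subunit) and Mrpl (large subunit). The genes described here are the rows of the hypothalamic count table whose symbol is Mrps or Mrpl followed by a number, with or without a closing letter. This rule found 78 of 55471 genes, 29 of the small and 49 of the large subunit by symbol, all annotated as protein coding, and it used no measured value. Of the 78 genes, 77 passed the filter on low counts (29 small and 48 large) and were tested together with all 18992 genes that passed it. Mrpl53 did not pass.

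Hypothalamic RNA was sequenced from 24 male C57BL/6J mice in 4 groups of 6. All mice carried a gastric catheter and had free access to chow. ExpOF mice were infused with a liquid diet enriched with sucrose, in excess of their energy needs, and control mice received sterile water at the same flow. The groups ExpOF d14 and Control d14 were sampled at the end of the 14 days of infusion, and ExpOF d14+3 and Control d14+3 were sampled 3 days later, on day 17, after diet infusion had ended. One Control d14 library (replicate 4) was removed by the study for RNA quality and is left out here except where stated, which leaves 5 mice in that group and 23 libraries. Each library came from 1 mouse, so the p-values below measure the spread between mice. The tissue is a whole hypothalamus, in which fewer cells of a type and less RNA per cell cannot be told apart.

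Total counts in the 23 libraries ranged from 8928182 to 34848437 (median 24035283), and the 78 genes took 0.209% to 0.297% of them (median 0.226%). All 10 hypothalamus marker genes passed the filter on low counts. Summed over the 10 genes, they differed in level between the groups. The median was 892 CPM (counts scaled to library size) in Control d14 and 766 CPM in ExpOF d14. It was 684 CPM in Control d14+3 and 599 CPM in ExpOF d14+3, and ExpOF and control ranges overlapped on both days. On d14, 8 of the 10 genes were lower and 2 higher in ExpOF mice. Of the 10, 1 was the only gene that edgeR called on d14 (adjusted p = 4.7e-05), so the sums do not measure tissue content alone. All 10 were lower in Control d14+3 than in Control d14 (median log2 fold change -0.47). Choroid plexus markers, summed over 5 genes, stood at 3035 CPM in Control d14 replicate 5 and 1293 CPM in ExpOF d14+3 replicate 4. The other libraries had 33.4 to 60.8 CPM. Pituitary markers were highest in Control d14 replicate 1 (105 CPM).

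The mitochondrial ribosome translates only the few messenger RNAs of the mitochondrial genome, which encode core subunits of the respiratory chain and the ATP synthase. Its small subunit binds the messenger RNA and holds the decoding centre, and its large subunit forms the peptide bond and the tunnel through which the product leaves, close to the inner membrane. Part of its proteins descend from bacterial ribosomal proteins and the rest are found only in mitochondria. Among the 78 genes, 45 were classed as homologues of bacterial ribosomal proteins and 33 as mitochondria-specific, following the uniform ribosomal protein names. The 33 include Mrps18a and Mrps18b, which descend from bacterial S18 but carry mitochondria-specific names, and Mrps36. The symbols do not always match the structure, since the products of Mrps18a and Mrps30 are bound to the large subunit, and the product of Mrps36 is now known as a part of the 2-oxoglutarate dehydrogenase complex.

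The 78 genes lay on 17 chromosomes (mm10), with 11 genes on chromosome 11, 8 on chromosome 17 and 7 on chromosome 6. In 45 genes no exonic base was shared with another gene. How strand was handled in counting is not given in the sources used here, so reads of overlapping genes may not be separable. In 3 genes more than 50% of the exonic bases were shared: Mrpl53 (Gm42688 and Ccdc142os), Mrps34 (Nme3 on the same strand, Mapk8ip3 on the opposite one) and Mrps25 (Nr2c2). Another 5 genes named as pseudogenes of Mrps36, Mrpl23 and Mrpl48 were left out by the rule, and reads of near-identical copies could be divided between them and their parent genes.

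The start sites of part of these genes hold short sequences that are known binding motifs of the factors NRF1, GABP (an ETS factor) and YY1. These are textbook regulators of nuclear genes for mitochondrial proteins. RefSeq promoters (GRCm38.p6, 250 bases before to 50 bases after the start) were matched for 69 of the 78 genes, and motifs were searched on both strands. The ETS motif CCGGAAG was found in the promoters of 26 of 69 genes (37.7%, against 9.93% of all 27025 genes with a promoter). The YY1 motif AAGATGGCG was found in 8 (11.6% against 1.64%) and the NRF1 motif GCGCATGCG in 7 (10.1% against 1.95%). One or more of these 3 motifs occurred in 36 of the 69 promoters. The SP1 motif GGGGCGG occurred in 24 promoters (34.8% against 25.5%) and the TATA motif TATAAA in 5 (7.25% against 15.7%). These counts describe letters in a window and not binding.

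Shown here are the promoters of the genes with the smallest unadjusted p of each subunit on each day (Mrps24 and Mrpl13 on d14, Mrps21 and Mrpl40 on d14+3). Whether motifs go with the fold changes was not tested. Mrpl13 has no entry in the promoter table. All 3 genes lie on the minus strand, and the sequences run 5′ to 3′ along the gene with the matches in capitals. The Mrps24 window (chr11:5707652-5707951) lies at the RefSeq start site, 7979 bases inside the 5′ end of the gene as counted, and holds the TATA motif on the opposite strand at position -181, the SP1 motif on the opposite strand at -53 and the YY1 motif at 37. The Mrps21 window (chr3:95871465-95871764) holds the ETS motif on the opposite strand at 19, and the Mrpl40 window (chr16:18876588-18876887) holds the SP1 motif at -52 and -35, where positions count from the start site as 1.
Mrps24: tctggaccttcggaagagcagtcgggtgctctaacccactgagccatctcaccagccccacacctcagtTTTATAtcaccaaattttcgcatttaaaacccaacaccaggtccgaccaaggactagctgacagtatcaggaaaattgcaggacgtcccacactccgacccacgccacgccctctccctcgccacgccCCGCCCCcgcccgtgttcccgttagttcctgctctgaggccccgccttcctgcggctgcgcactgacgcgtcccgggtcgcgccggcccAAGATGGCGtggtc
Mrps21: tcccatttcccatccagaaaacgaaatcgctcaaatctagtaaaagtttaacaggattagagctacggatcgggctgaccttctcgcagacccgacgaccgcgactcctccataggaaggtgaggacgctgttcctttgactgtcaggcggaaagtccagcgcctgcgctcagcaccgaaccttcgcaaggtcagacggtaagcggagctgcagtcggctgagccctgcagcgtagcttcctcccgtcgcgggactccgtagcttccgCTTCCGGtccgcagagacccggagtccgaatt
Mrpl40: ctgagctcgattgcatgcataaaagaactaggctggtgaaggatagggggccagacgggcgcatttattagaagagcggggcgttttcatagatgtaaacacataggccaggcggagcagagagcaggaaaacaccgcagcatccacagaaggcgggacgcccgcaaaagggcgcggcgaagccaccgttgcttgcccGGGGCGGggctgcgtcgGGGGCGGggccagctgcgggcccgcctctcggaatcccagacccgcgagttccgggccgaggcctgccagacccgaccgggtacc

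Levels were compared between genes as CPM per kilobase of the gene length in the count table, averaged over the 23 libraries. On this scale the median was 9.87 for the 29 small subunit genes and 14.1 for the 48 large subunit genes, and the 77 genes together spanned 1.75 to 51.9. The highest small subunit genes were Mrps12, which encodes a protein of the decoding centre (32.0 CPM per kilobase), Mrps21 (27.2) and Mrps23 (26.2). The highest large subunit genes were Mrpl41 (51.9 CPM per kilobase), Mrpl12 (35.1) and Mrpl10 (34.8), of which the last 2 encode the stalk that recruits translation factors. The lowest were Mrps35 (2.49 CPM per kilobase), Mrps30 (3.02) and Mrps34 (3.19) in the small subunit and Mrpl23 (1.75), Mrpl33 (2.53) and Mrpl32 (3.18) in the large one. Of these 6 genes, 5 were longer in the count table than the median of 2533 bases over the 77 genes, and the values per kilobase depend on the length given there. Mrpl53, the gene that failed the filter, had 0 to 11 counts per library (0 to 0.414 CPM), and no fold change is given for it.

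The genes of both subunits moved together from mouse to mouse. The mean log2 CPM over the 77 genes was 4.87 ± 0.23 (SD, n = 5) in Control d14, 4.66 ± 0.06 (SD, n = 6) in ExpOF d14, 4.81 ± 0.16 (SD, n = 6) in Control d14+3 and 4.69 ± 0.14 (SD, n = 6) in ExpOF d14+3. The lowest and highest libraries were 4.57 and 5.11 in Control d14, 4.60 and 4.77 in ExpOF d14, 4.67 and 5.07 in Control d14+3, and 4.57 and 4.96 in ExpOF d14+3. The ranges overlapped on both days, and Control d14 replicate 1 was the lowest of all 23 libraries. On d14 the ExpOF mice differed little among themselves, while the 5 control mice included both the highest and the lowest of the 23 libraries.

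The balance between the subunits hardly varied. The small minus large difference in mean log2 CPM was -0.325 ± 0.017 (SD, n = 5) in Control d14, -0.316 ± 0.017 (SD, n = 6) in ExpOF d14, -0.325 ± 0.023 (SD, n = 6) in Control d14+3 and -0.323 ± 0.015 (SD, n = 6) in ExpOF d14+3. The difference of these values between ExpOF and control mice was 0.008 on d14 and 0.002 on d14+3, below the within-group SD of 0.018. The within-group SD of the 77-gene mean itself was 0.161. With Mrps18a and Mrps30 counted in the large subunit and Mrps36 in neither, the ExpOF minus control value was 0.007 on d14 and -0.001 on d14+3.

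**Figure D1:**
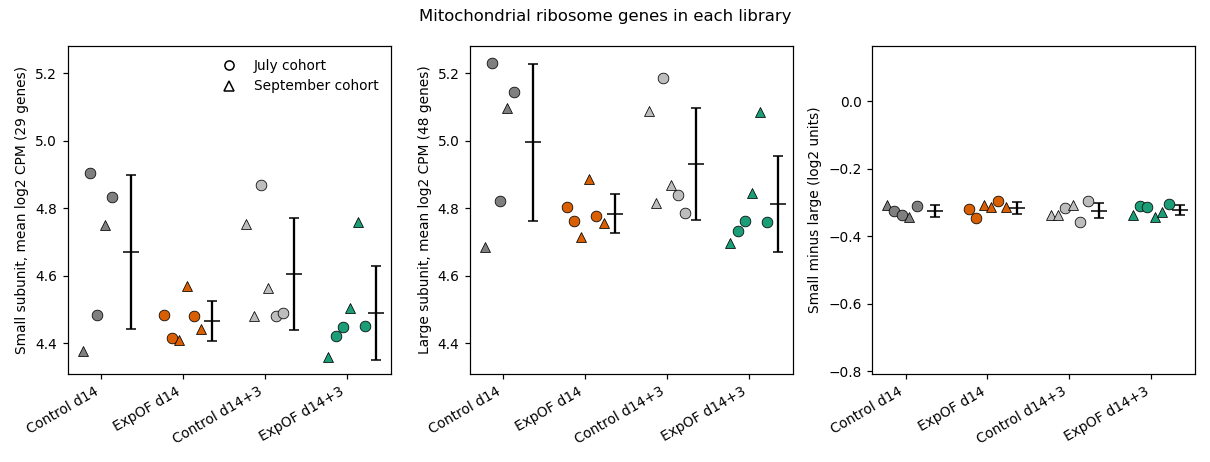
Mean log2 CPM of the 29 small subunit genes (left) and the 48 large subunit genes (middle) and their difference (right) in each of 23 libraries, by group. Points are mice (circles July cohort, triangles September cohort) and bars show mean ± SD. The left and middle panels show the same pattern, and the difference stays near -0.32 log2 units in all 4 groups.

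The spread of the 77-gene mean followed other features of the libraries. The 6 highest libraries had means of 4.96 or more, namely Control d14 replicates 2, 5 and 6, Control d14+3 replicates 1 and 3 and ExpOF d14+3 replicate 5, and all others had 4.77 or less. The same libraries had the 6 highest scores (15.4 to 26.2, against 1.44 or less in the others) for the expression profile of the removed Control d14 library, a score that leaves the 77 genes out and stands at 190 in that library itself. The 80 cytosolic ribosomal protein genes, which serve the other ribosome of the cell, ranged with them from 5.92 to 6.94 in mean log2 CPM, and the 6 libraries held the 6 highest values (6.59 to 6.94). The RNA integrity number averaged 9.20 in Control d14, 9.75 in ExpOF d14, 8.62 in Control d14+3 and 9.43 in ExpOF d14+3, and was 8.0 to 10 in these 6 libraries. The source of the shared profile was not tested.

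**Figure D2:**
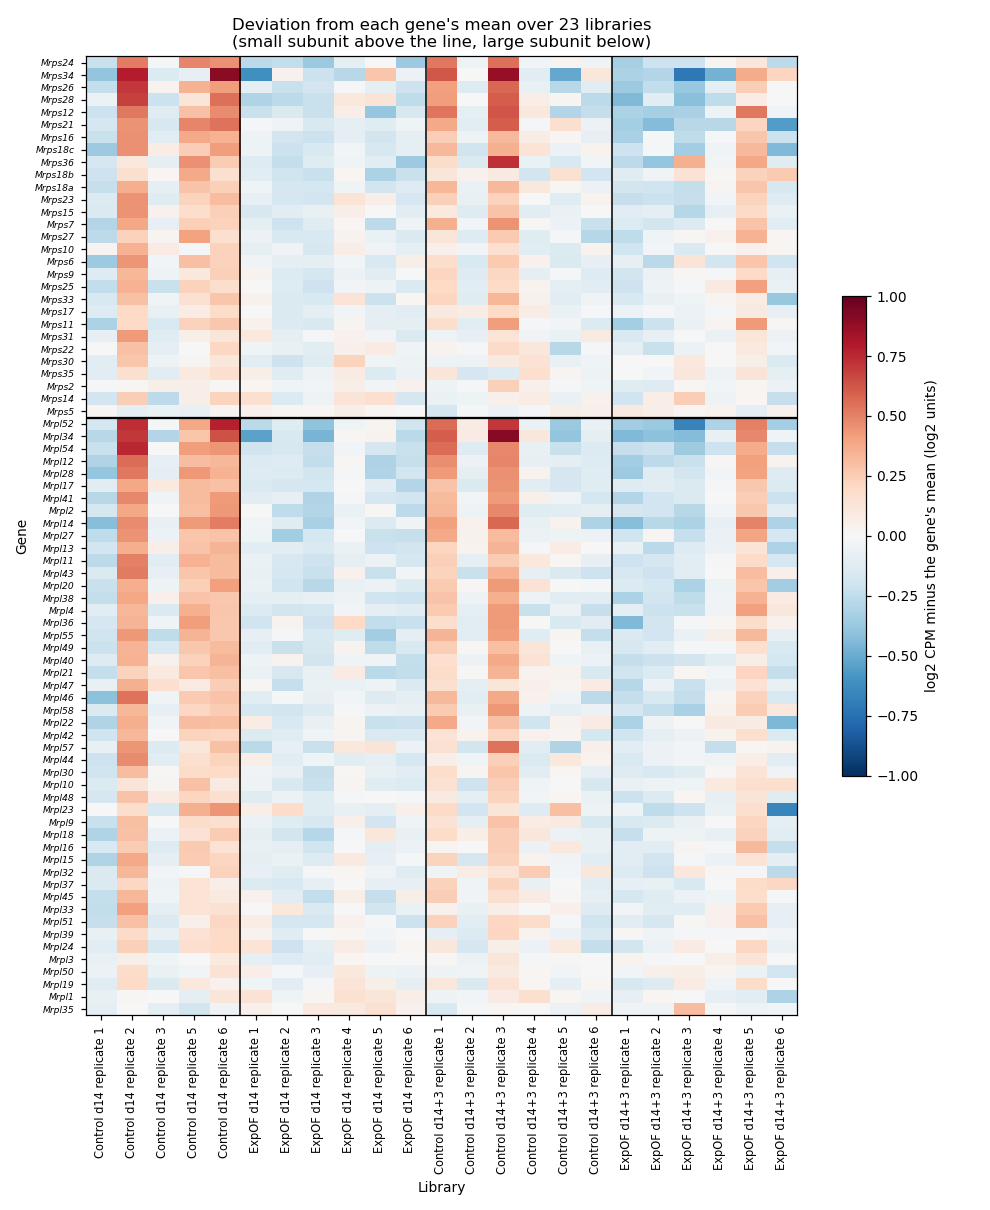
Deviation of log2 CPM from each gene's mean over 23 libraries, for 29 small subunit genes (above the black line) and 48 large subunit genes (below it), ordered by the d14 fold change, with libraries in columns by group. Values run from -0.72 to 0.91, and whole columns share a colour, with Control d14 replicate 2 the highest library for 40 of the 77 genes and Control d14+3 replicate 3 for 19.

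The first comparison asked which of these genes differed after 14 days of overfeeding. Most had lower means in ExpOF d14 than in Control d14, in both subunits, but none passed the test after adjustment. With edgeR's quasi-likelihood test, 0 of 77 genes had an adjusted p under 0.05 (smallest adjusted p = 0.135), against 1 of all 18992 genes (0.00527%). DESeq2 called 2 of them, Mrpl13 and Mrps24, against 1.54% of the 12729 genes to which it gave an adjusted p. The log2 fold change was negative in 74 of 77 genes, with a median of -0.23 against -0.02 for all genes tested, and ranged from -0.56 (Mrpl52) to 0.15 (Mrpl35). At an unadjusted p under 0.05, 42 of 77 genes were lower in ExpOF mice (13.6% of all genes tested were) and 1 was higher (13.1% of all genes tested). In no gene did every ExpOF mouse lie below every control mouse, which held for 0.958% of all genes tested.

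The counts depended on single control mice. Without Control d14 replicate 1, the library with the lowest 77-gene mean, 39 of 77 genes passed the adjusted threshold, all lower in ExpOF mice, against 9.93% of the genes tested in that fit that passed as lower and 22% that passed in either direction, and the median log2 fold change was -0.29. The count at an unadjusted p under 0.05 also moved with single mice. It was 58 of 77 genes lower without Control d14 replicate 1 (18.7% of all genes tested in that fit), but 17 without replicate 2 (7.85%), 26 without replicate 5 (8.38%) and 23 without replicate 6 (9.77%). With the profile score as a covariate the median was 0.02 instead, with 27 of 77 genes lower. In that fit 0 genes were lower and 3 higher at an unadjusted p under 0.05. The score itself averaged 8.99 ± 16.1 (SD) in Control d14 and -9.36 ± 4.05 (SD) in ExpOF d14. Overfeeding and the shared profile therefore cannot be cleanly separated in that fit. Without the pair of libraries high in choroid plexus markers, 0 genes passed and 22 were lower at an unadjusted p under 0.05. The median in that fit was -0.21, against -0.02 for all genes tested. The share of all genes past the unadjusted level was not counted for the profile score and choroid plexus fits.

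The subunits did not stand apart on d14. In the small subunit 28 of 29 genes had a negative log2 fold change (median -0.22) and 14 were lower at an unadjusted p under 0.05. In the large subunit 46 of 48 had a negative value (median -0.23) and 28 were lower at that level. By structural assignment the medians were -0.21 over 26 small and -0.23 over 50 large subunit genes. Homologues of bacterial proteins had a median of -0.23 over 45 genes (42 negative) and mitochondria-specific proteins -0.22 over 32 genes (32 negative).

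Among the small subunit genes Mrps24 had the smallest unadjusted p. It lies at chr11:5703983-5715680 and encodes uS3 (the uniform ribosomal protein name), which lines the entry channel of the messenger RNA, and 15.4% of its exonic bases are shared with Urgcp on the same strand. Its level was 12.2, 20.2, 13.9, 19.9 and 19.4 CPM in Control d14 replicates 1, 2, 3, 5 and 6, and 10.96 (lowest), 11.9 (median) and 14.2 CPM (highest) in ExpOF d14. Control replicates 2, 5 and 6 lay above all ExpOF mice, and replicates 1 and 3 lay within their range. This gave a log2 fold change of -0.50 ± 0.14 (SE; adjusted p = 0.135 by edgeR, 0.0491 by DESeq2; two-sided exact permutation test, p = 0.0216).

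Mrps16 (bS16, needed early in small subunit assembly) had -0.33 ± 0.11 (SE), and of its controls of 21.2, 33.8, 22.9, 32.0 and 31.3 CPM the same 3 lay above the ExpOF range of 21.3 to 23.8 CPM. Mrps26 (mS26, mitochondria-specific) had -0.43 ± 0.15 (SE), with 37.3 to 71.9 CPM in control and 37.7 to 43.5 CPM in ExpOF mice. Mrps10 (uS10, a protein of the head of the subunit) had -0.20 ± 0.07 (SE), with 29.6 to 38.03 CPM in control and 26.6 to 31.3 CPM in ExpOF mice. For Mrps15 (uS15, which binds the small ribosomal RNA) the value was -0.23 ± 0.09 (SE). Adjusted p-values of these 4 genes lay between 0.135 and 0.145 (edgeR), and the groups overlapped in each.

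Mrpl13 led the large subunit. It lies at chr15:55534094-55557349, encodes uL13, a protein with a bacterial homologue, and shares 4.16% of its exonic bases with Mtbp on the opposite strand. Its level was 28.8, 42.2, 34.4, 40.1 and 41.5 CPM in Control d14 replicates 1, 2, 3, 5 and 6, and 28.4 (lowest), 30.04 (median) and 31.4 CPM (highest) in ExpOF d14. Only control replicate 1 lay within the ExpOF range. The estimate was a log2 fold change of -0.32 ± 0.09 (SE; adjusted p = 0.135 by edgeR, 0.0495 by DESeq2; two-sided exact permutation test, p = 0.026).

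Mrpl17 (bL17) had 31.1, 43.9, 36.1, 41.9 and 41.2 CPM in the 5 control mice and 27.5 (lowest), 30.2 (median) and 33.7 CPM (highest) in ExpOF d14. Here too control replicate 1 was the one overlapping mouse, and the log2 fold change was -0.35 ± 0.11 (SE; adjusted p = 0.135 by edgeR; two-sided exact permutation test, p = 0.00866). Mrpl52 (mL52) had the most negative log2 fold change of the 77 genes, -0.56 ± 0.20 (SE; adjusted p = 0.138 by edgeR). Its control values of 15.0, 28.1, 16.6, 22.01 and 28.9 CPM spread more widely than the ExpOF values of 12.7 to 17.2 CPM, which overlapped the lower pair of controls.

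Mrpl54 (mL54) had a log2 fold change of -0.49 ± 0.16 (SE), with 16.6 to 32.8 CPM in control and 16.5 to 19.0 CPM in ExpOF mice. Mrpl11 (uL11, part of the site where the GTPase factors bind) had -0.32 ± 0.11 (SE), with 32.5 to 55.3 CPM against 33.7 to 37.4 CPM. Mrpl40 (mL40) had -0.26 ± 0.09 (SE) and Mrpl47 (uL29, at the exit of the peptide tunnel) -0.25 ± 0.08 (SE). The adjusted p of each of these 4 genes was 0.135 (edgeR). Control replicate 1 lay below the highest ExpOF mouse in each of them.

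Mrpl35, which encodes bL35, was the one gene higher at an unadjusted p under 0.05, and it is named after its values were seen. Its level was 28.9, 30.6, 28.7, 27.2 and 29.96 CPM in the control mice and 30.7 (lowest), 32.3 (median) and 34.3 CPM (highest) in ExpOF d14. The groups did not overlap, which held in this direction for 1.54% of all genes tested, but the gap between the nearest mice was small. Its log2 fold change was 0.15 ± 0.06 (SE; adjusted p = 0.145 by edgeR). The exact permutation p of 0.00433 is the smallest that 6 against 5 mice can give in a two-sided test. It follows from the lack of overlap and adds nothing to it.

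**Figure D3:**
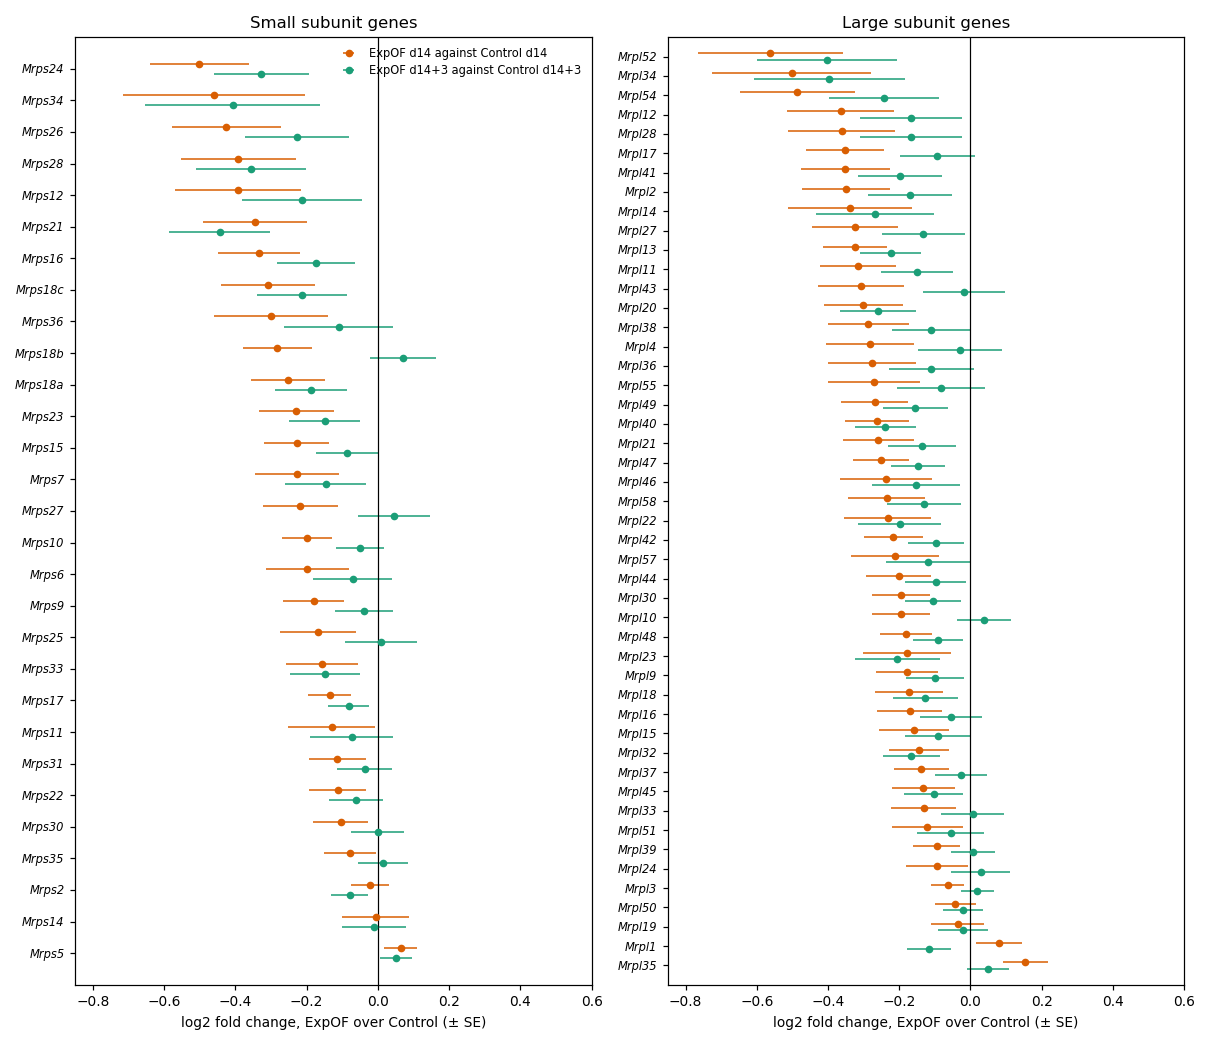
Log2 fold change of ExpOF over control (± SE, edgeR) on d14 (orange) and d14+3 (green) for the 29 small (left) and 48 large (right) subunit genes, in the order of the d14 value. Most points lie left of 0 on both days, the d14 values are the larger ones for most genes, and both panels cover a similar range.

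On d14+3, after the end of diet infusion, the same comparison gave smaller differences. The edgeR test called 0 of 77 genes (smallest adjusted p = 0.443) and 0 of 18992 genes in all (0%). DESeq2 called 0 of the 77, against 0.245% of the 17135 genes to which it gave an adjusted p. The log2 fold change was negative in 66 of 77 genes, with a median of -0.11 against 0.01 for all genes tested. At an unadjusted p under 0.05, 7 genes were lower in ExpOF mice (4.2% of all genes tested) and 0 were higher (2.91% of all genes tested). The count of lower genes was 27 without ExpOF d14+3 replicate 5 (7.39% of all genes tested in that fit), 11 without Control d14+3 replicate 6 (5.46%), 4 without Control d14+3 replicate 1 (2.96%) and 2 without Control d14+3 replicate 3 (2.61%). In 0 genes did the groups not overlap, against 0.3% of all genes tested with ExpOF lower and 0.121% with ExpOF higher.

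The small subunit had a median of -0.08 (24 of 29 genes negative, 3 lower at an unadjusted p under 0.05) and the large subunit -0.11 (42 of 48 negative, 4 lower). Homologues of bacterial proteins had a median of -0.12 (45 genes) and mitochondria-specific proteins -0.10 (32 genes). With the profile score as a covariate the median over the 77 genes was 0.01. The score averaged 5.73 ± 14.2 (SD) in Control d14+3 and -3.86 ± 10.8 (SD) in ExpOF d14+3, so the limit given for d14 holds here too.

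Mrps21 (bS21, chr3:95862634-95871519) had the smallest unadjusted p on this day. Its level was 18.1 (lowest), 20.7 (median) and 29.97 CPM (highest) in Control d14+3 and 13.3, 15.9 and 22.8 CPM in ExpOF d14+3. The highest ExpOF mouse was replicate 5, and the other 5 lay at 16.2 CPM or less, below every control mouse. The log2 fold change was -0.44 ± 0.14 (SE; adjusted p = 0.443 by edgeR; two-sided exact permutation test, p = 0.0281). On d14 its controls stood at 17.5, 26.8, 17.6, 27.6 and 28.7 CPM and the ExpOF mice between 17.7 and 19.5 CPM, with a log2 fold change of -0.35 ± 0.15 (SE; adjusted p = 0.151 by edgeR).

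Mrpl40 (mL40, chr16:18872018-18876862) led the large subunit on d14+3. Its level was 23.1 (lowest), 24.96 (median) and 31.2 CPM (highest) in Control d14+3 and 20.4, 21.2 and 25.2 CPM in ExpOF d14+3. The ranges overlapped between 23.1 and 25.2 CPM, and the log2 fold change was -0.24 ± 0.09 (SE; adjusted p = 0.538 by edgeR; two-sided exact permutation test, p = 0.0195). On d14 the value was -0.26, close to that on d14+3.

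Of the other genes with small p on d14+3, Mrpl13 had a log2 fold change of -0.22 ± 0.09 (SE; 32.4 to 41.7 CPM in control and 26.5 to 35.98 CPM in ExpOF mice), and Mrps24 had -0.33 ± 0.13 (SE; 13.6 to 20.7 against 11.3 to 15.4 CPM). Mrpl20 (bL20, which binds the large ribosomal RNA) had -0.26 ± 0.11 (SE; 39.7 to 54.1 against 31.6 to 48.6 CPM) and Mrps28 (bS1, a relative of the bacterial protein S1) -0.36 ± 0.15 (SE; 6.61 to 12.1 against 5.83 to 8.36 CPM). Mrpl32 (bL32) had -0.17 ± 0.08 (SE). Adjusted p-values of these 5 genes lay between 0.575 and 0.702 (edgeR), and the groups overlapped in all of them. Mrps34 (mS34) had -0.41 ± 0.24 (SE), an uncertain value, since its exons are shared with Nme3 and Mapk8ip3.

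**Figure D4:**
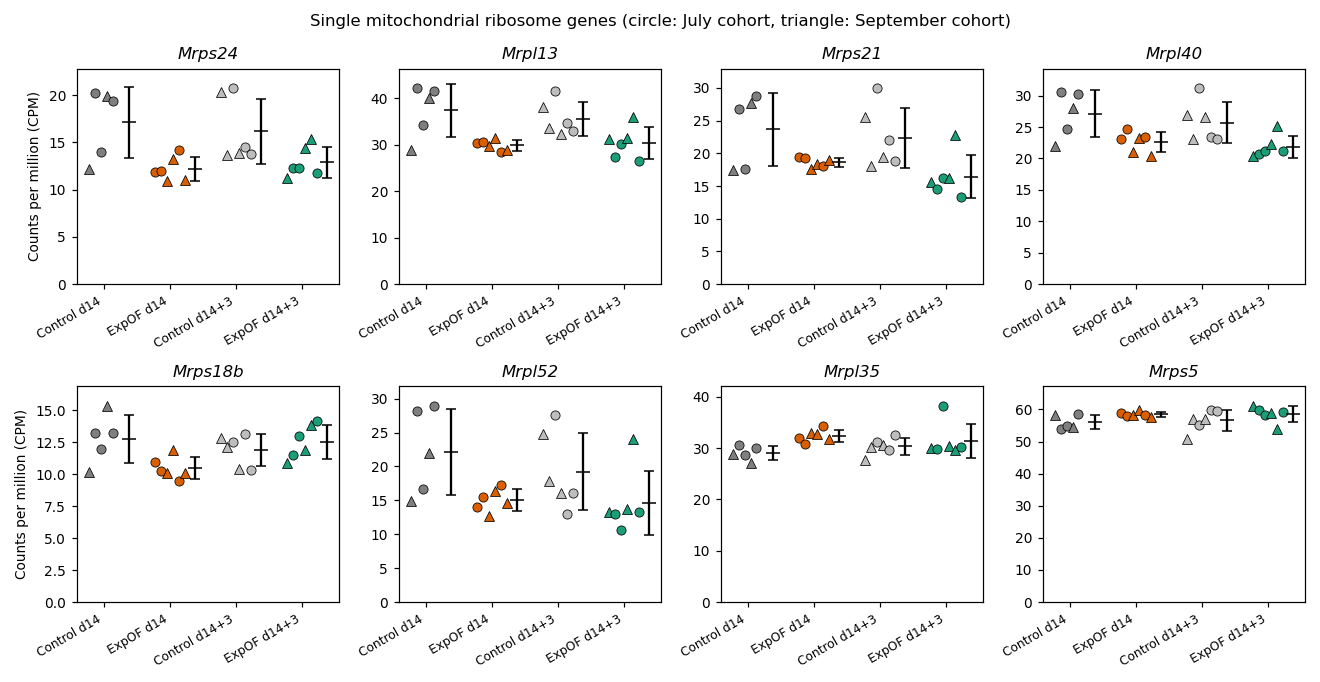
CPM of 8 genes in each mouse (circles July cohort, triangles September cohort), by group, with mean ± SD; each vertical axis starts at 0. Mrps24, Mrpl13, Mrps21, Mrpl40 and Mrpl52 show controls split into high and low mice, Mrps18b has a lower mean in ExpOF mice on d14 but not on d14+3, and Mrpl35 and Mrps5 vary little.

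The overfeeding comparisons on d14 and d14+3 used different mice. Negative values on both days were found for 65 of 77 genes (84.4%, against 36.3% of all genes tested) and positive ones for 2, Mrps5 and Mrpl35. The log2 fold change was larger in size on d14 in 71 of 77 genes (92.2%, against 69.7% of all genes tested). At an unadjusted p under 0.05 on both days, 6 genes were lower: Mrpl13, Mrpl20, Mrpl40, Mrps21, Mrps24 and Mrps28 (1.8% of all genes tested were lower on both days at that level). The median of all genes tested was -0.02 and 0.01 on these days.

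The difference between the days was tested directly as an interaction, and 0 of 77 genes had an adjusted p under 0.05 by edgeR or DESeq2, as for all genes tested by either tool (0%). The interaction was positive, that is less negative on d14+3, in 69 of 77 genes, with a median of 0.10. At an unadjusted p under 0.05 it was higher for 2 genes and lower for 1, against 4.42% of all genes tested in either direction, and the count of both directions was 1 to 6 when 1 library was left out (6 without Control d14 replicate 1 and without Control d14+3 replicate 3). The share of all genes was not counted in the fits with 1 library left out. In the fit of 23 libraries, Mrps18b had 0.35 ± 0.13 (SE) and Mrpl10 0.23 ± 0.11 (SE). Mrpl1, which encodes the movable L1 stalk protein, had -0.20 ± 0.09 (SE). The adjusted p of each was 0.903 (edgeR).

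Mrps18b (mS40, chr17:35910379-35916389, with 30.5% of its exonic bases shared with Gm16279 on the opposite strand) had 10.2, 13.2, 11.97, 15.3 and 13.2 CPM in the Control d14 mice and 9.47 (lowest), 10.2 (median) and 11.9 CPM (highest) in ExpOF d14. On d14+3 it had 10.3, 12.4 and 13.1 CPM in control and 10.9, 12.5 and 14.1 CPM in ExpOF mice. Only control replicate 1 overlapped the ExpOF mice on d14, whereas the groups covered each other on d14+3. The log2 fold change was -0.28 ± 0.10 (SE; adjusted p = 0.135 by edgeR; exact permutation test, p = 0.026) on d14 and 0.07 ± 0.09 (SE; adjusted p = 0.83) on d14+3.

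Between the days, Control d14+3 mice differed from Control d14 mice in 0 of 77 genes at an adjusted p under 0.05 by edgeR and by DESeq2 (1.15% of all genes tested by edgeR and 3.24% by DESeq2), and in 0 at an unadjusted p under 0.05 (12.7% of all genes tested). The last count was 7 without Control d14 replicate 1, 6 without Control d14+3 replicate 3 and 0 to 2 without any other library. The median log2 fold change was -0.08, with 67 genes lower, and the smallest unadjusted p-values belonged to Mrps10 (-0.14 ± 0.07, SE), Mrpl39 (-0.11 ± 0.07, SE) and Mrpl43 (-0.19 ± 0.12, SE). ExpOF d14+3 mice differed from ExpOF d14 mice in 0 of 77 genes at an adjusted p under 0.05 by edgeR and by DESeq2 (0% of all genes tested by edgeR and 1% by DESeq2), and at an unadjusted p under 0.05 in 1 gene upward (Mrps18b, 0.25) and 1 downward (Mrpl1, -0.17), against 7.79% of all genes tested (2 to 5 genes when 1 library was left out, 5 without ExpOF d14+3 replicate 3). The median was 0.04, with 23 genes lower. For both day comparisons, the share of all genes was not counted in the fits with 1 library left out. The day comparisons share mice with those above.

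The paralogues Mrps18a, Mrps18b and Mrps18c descend from 1 bacterial S18 gene, and their products occupy different places in the ribosome. Mrps18c (bS18), in the small subunit, had a log2 fold change of -0.31 ± 0.13 (SE) on d14 and -0.21 ± 0.13 (SE) on d14+3, and 23.2% of its exonic bases are shared with Gm43511. Mrps18a (mL66), in the large subunit, had -0.25 ± 0.10 (SE) and -0.19 ± 0.10 (SE). The d14 values of all 3 paralogues were of similar size, and only Mrps18b had a positive value on d14+3. Their levels over the 23 libraries differed more, with group means of 5.02 to 6.12 CPM per kilobase for Mrps18b and 10.7 to 16.1 CPM per kilobase for the other genes.

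Of the genes with particular roles, Mrpl12, whose product also binds the mitochondrial RNA polymerase, had 42.8, 77.9, 49.96, 65.5 and 66.6 CPM in Control d14 and 42.7 to 53.2 CPM in ExpOF d14. Its log2 fold change was -0.36 ± 0.15 (SE) on d14 and -0.17 ± 0.14 (SE) on d14+3. Mrpl58, a peptidyl-tRNA hydrolase that releases stalled chains, had -0.24 ± 0.11 (SE) and -0.13 ± 0.10 (SE). Mrpl23 (uL23, at the tunnel exit) had -0.18 ± 0.12 (SE) and -0.21 ± 0.12 (SE).

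Mrps30 (mL65) had -0.10 ± 0.08 (SE) on d14 and a value near 0 on d14+3 (adjusted p = 0.999 by edgeR). Mrps36, the dehydrogenase complex protein, had -0.30 ± 0.16 (SE) and -0.11 ± 0.15 (SE). Mrps5 (uS5, near the decoding centre) was the steadiest of them, with 53.8 to 58.5 CPM in Control d14, 57.7 to 59.9 CPM in ExpOF d14, 50.9 to 59.9 CPM in Control d14+3 and 54.0 to 61.0 CPM in ExpOF d14+3. Its log2 fold change was 0.06 ± 0.05 (SE) and 0.05 ± 0.04 (SE). None of these 6 genes passed the adjusted threshold (edgeR; adjusted p of 0.146 to 0.374 on d14).

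Among the highest genes per kilobase, Mrpl41 (mL41) had 37.4, 63.6, 44.1, 56.7 and 60.9 CPM in Control d14 and 36.8 to 45.1 CPM in ExpOF d14, with a log2 fold change of -0.35 ± 0.12 (SE; adjusted p = 0.137 by edgeR). Mrps12 had -0.39 ± 0.18 (SE), Mrps23 -0.23 ± 0.11 (SE) and Mrpl10 -0.20 ± 0.08 (SE), beside Mrps21 and Mrpl12 above. Among the lowest genes per kilobase, Mrps35 had -0.08 ± 0.07 (SE), Mrpl33 -0.13 ± 0.09 (SE), Mrpl32 -0.14 ± 0.08 (SE) and Mrps34 -0.46 ± 0.26 (SE) on d14, beside Mrps30 and Mrpl23 above. The values of the highest and lowest genes overlapped.

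The size of the difference varied with gene length. Over the 77 genes the d14 log2 fold change had Pearson's r = 0.565 and Spearman's rho = 0.604 with log2 gene length, and -0.588 and -0.589 with the GC content of the longest transcript. On d14+3 the values were 0.530 and 0.519 for length and -0.445 and -0.425 for GC content. These correlations are across genes of the same libraries, which are not independent replicates. The median d14 log2 fold change was -0.32 in the 26 shortest genes (26 negative, 19 lower at an unadjusted p under 0.05), -0.21 in the 25 of middle length (25 negative, 12 lower) and -0.15 in the 26 longest (23 negative, 11 lower, 1 higher). On d14+3 the medians were -0.17, -0.09 and -0.07. Each library's trend with gene length over all genes was then removed. The d14 median over the 77 genes became -0.16 (all genes tested -0.02), with 18 lower at an unadjusted p under 0.05. After removal of the trends with length and GC content it was -0.14 (all genes tested -0.01), again with 18. The share of all genes lower at that level was not counted in these fits.

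**Figure D5:**
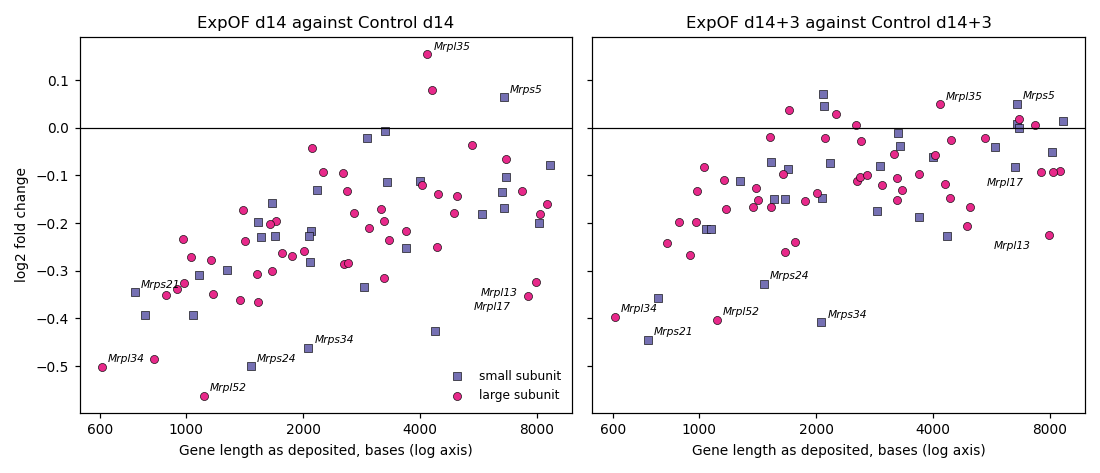
Log2 fold change of ExpOF over control against gene length (log axis, bases) on d14 (left) and d14+3 (right) for 29 small (squares) and 48 large (circles) subunit genes. The shortest genes lie lowest on both days, with exceptions such as Mrpl13 and Mrpl17 among the long ones.

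The labels give a July and a September date of death, with 3 mice of each group in each cohort (2 of Control d14 in September). On d14 the median log2 fold change over the 77 genes was -0.30 in July (74 negative) and -0.12 in September (68 negative), and 68 genes were negative in both. On d14+3 it was -0.19 in July (71 negative) and -0.05 in September (57 negative), with 55 negative in both. Medians of all genes tested lay between -0.02 and 0.00 in these 4 comparisons.

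The other genes of the pathway were examined from lists of known function, whose counts at an unadjusted p under 0.05 stand beside 13.6% lower and 13.1% higher for all genes tested on d14 and 4.2% and 2.91% on d14+3. The 5 mitochondrial ribosome proteins with other symbols had a median log2 fold change of -0.28 on d14, with 4 of 5 lower at an unadjusted p under 0.05. Gadd45gip1 had -0.41 ± 0.15 (SE), Aurkaip1 -0.30 ± 0.14 (SE), Chchd1 -0.28 ± 0.12 (SE), Dap3, a GTP-binding protein of the small subunit, -0.16 ± 0.07 (SE), and Ptcd3, a pentatricopeptide repeat protein, 0.05 ± 0.06 (SE). On d14+3 the median of these 5 was -0.06, with 1 lower (Chchd1, -0.32). The 2 ribosomal RNAs of the mitochondrial genome, which are poorly represented in poly-A selected libraries, had 0 of 2 past that level on d14 (0.07 for mt-Rnr1 and 0.13 for mt-Rnr2), and 1 of 2 lower on d14+3 (mt-Rnr1, -0.23).

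Of 25 assembly factors, which build the ribosome, 9 were lower and 1 higher on d14 at an unadjusted p under 0.05 (median -0.13; 13.6% of all genes tested were lower and 13.1% higher), with -0.40 ± 0.13 (SE) for Malsu1, which keeps immature large subunits apart from small ones, and -0.22 ± 0.07 (SE) for the GTPase Noa1. On d14+3, 2 were lower and 1 higher (median -0.04), and Malsu1 (-0.38) and Noa1 (-0.20) were the lower ones. Of 12 translation factors, 2 were lower on d14 (median -0.05), namely Oxa1l, the insertase of the inner membrane (-0.23 ± 0.08, SE), and the elongation factor Tsfm (-0.25 ± 0.12, SE), and 0 passed that level on d14+3. Of 17 mitochondrial aminoacyl-tRNA synthetases, 1 was lower (Fars2, -0.30) and 3 higher on d14 (Mars2, 0.45 ± 0.14, SE; median of the 17 genes -0.05). The shares of the translation factors lower and of the synthetases higher on d14 were near those of all genes tested. On d14+3, 1 was lower and 1 higher, and Lars2 had -0.80 ± 0.17 (SE; adjusted p = 0.218 by edgeR).

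In transcription of the mitochondrial genome, 2 of 9 genes were lower on d14 (Slirp, -0.32, and Tfam, -0.13; median -0.05), beside 13.6% of all genes tested, and 1 on d14+3 (Slirp, -0.36). Of 9 factors and coactivators that act on nuclear genes for mitochondrial proteins, 0 were lower and 5 higher on d14 (median 0.18; 13.1% of all genes tested were higher), among them Yy1 (0.18 ± 0.06, SE) and Gabpa, the ETS factor subunit (0.31 ± 0.12, SE). On d14+3 the median of these 9 was 0.00 with 0 past that level. Of the 13 messenger RNAs of the mitochondrial genome 8 passed the filter, and 6 of them were higher on d14 at that level (median 0.21; 13.1% of all genes tested), with 0.46 ± 0.14 (SE) for mt-Nd2 and 0.22 ± 0.08 (SE) for mt-Nd4. On d14+3 their median was 0.08, with 1 lower. None of the genes of these lists passed the adjusted threshold on either day (edgeR).

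The 80 cytosolic ribosomal protein genes, read beside the 77 mitochondrial ones, had a median log2 fold change of -0.35 on d14 (80 negative, 69 lower at an unadjusted p under 0.05) and -0.40 on d14+3 (78 negative, 63 lower). The medians of the 77 mitochondrial ribosome genes were -0.23 and -0.11. The difference between the lists was not tested.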

How the data were processed

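Hypothalamic RNA of 24 mice was sequenced as poly-A selected, stranded libraries. The deposited values are raw counts per gene without normalization, which the authors made with STAR (mm10) and featureCounts 1.6.4, beside the length and position of each gene. Columns were matched to samples by the labels, and 0 per-sample columns remained unmatched. Of 55471 genes, 55144 received a symbol. The Control d14 library left out by the study was identified as replicate 4 by comparison with the study's mean values for 1992 genes. Without it, the gene means over all remaining libraries lay within 0.313% (median) of those values. Without any other Control d14 library the deviation was 4.53% or more.

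For 23 libraries, edgeR 4.0.16 (R 4.3.3) fitted the 4 groups by robust quasi-likelihood, with TMM factors and filterByExpr (at least 10 counts by group size and 15 in total). P-values were adjusted by Benjamini-Hochberg over all 18992 genes tested, with calls at 0.05. CPM values use TMM library sizes, and log2 CPM a prior count of 2. Single genes were also compared with two-sided exact permutation tests (SciPy 1.17.1). Their p-values are unadjusted, and for genes chosen by small p in the same data they are no independent evidence. Tested on simulated data with 200 changed genes among 18711, edgeR recovered 180 with 9 other calls. Recovery was not tested for fold changes as small as those of the mitochondrial ribosome genes, or for genes that move together between libraries. Libraries of a group all differed by more than sampling noise (lowest chi-square per degree of freedom 2.95). Counting error weighs most on genes with few counts.

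Alternatives were DESeq2 1.42.0 as the test or for size factors, other filters, fewer or more libraries, each cohort alone, covariates (RNA integrity, cohort and extraction round, profile score), removal of trends with length and GC content, a replicate block and subunits by structure. The profile score projects each library on the difference between the removed library and the mean of the other Control d14 libraries, with the mitochondrial ribosome genes left out. The replicate numbers in the labels did not pair the mice: of 33 pairs with the same number, 6 had a correlation of deviations over 0.1.

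The genes and lists were chosen with earlier results of these data known. Genes named were the 6 with the smallest unadjusted p of each subunit in each overfeeding comparison, the 3 with the smallest in each day comparison and in the interaction, the 3 highest and 3 lowest per kilobase of each subunit, genes of particular role, the gene below the filter, the mitochondrial ribosome proteins with other symbols, and the 2 with the smallest p of each other list in each overfeeding comparison.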

Additional observations from a re-analysis of the deposited data

Results flagged for a closer look

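Single mice that lay apart from the rest of their group were sought in the groups of 5 or 6 mice with Dixon's test, for the subunit means and the genes named, over 132 groups, of which 8 stood out. Chance alone marks about 1 in 20 such groups. In ExpOF d14, replicate 4 was the highest mouse for Mrpl54 (19.0 CPM, next 17.4 CPM) and for Mrps30 (23.4 CPM, next 19.5 CPM). In Control d14+3, replicate 3 was the highest for Mrps36 (10.3 CPM, next 7.06 CPM). In ExpOF d14+3, replicate 5 had a mean log2 CPM of 4.76 over the 29 small subunit genes (next 4.50), with 40.6 CPM for Mrpl17 (next 33.1 CPM), 24.0 CPM for Mrpl52 (next 13.7 CPM), 25.1 CPM for Mrpl54 (next 16.8 CPM) and 22.8 CPM for Mrps21 (next 16.2 CPM).

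The library removed by the study, Control d14 replicate 4, entered no comparison of the report except the alternative with all 24 libraries and the profile score, which is built from it. Its mean log2 CPM over the 77 genes was 6.13, against 5.11 in the highest of the other Control d14 libraries, and 73 of the 77 genes were above all of those libraries (38.2% of all genes were). The ratio to the mean of the other Control d14 mice had a median of 2.52 and ranged from 0.756 to 7.06. The 78 genes took 0.579% of its 10922271 counts, and its RNA integrity number in the labels was 9.8. The source of this difference was not tested.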

How the results depend on the processing

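On d14, 0 of 77 genes passed the adjusted threshold in the edgeR fit and in its alternatives, except that DESeq2 called 2 and that leaving out 1 library at a time gave 0 to 39, the 39 without Control d14 replicate 1. The median log2 fold change on d14, -0.23, ranged from -0.29 to -0.17 over the left-out libraries, was -0.51 with all 24 libraries and 0.017 with the profile score as a covariate. On d14+3 no alternative run called a gene, the median was -0.16 to -0.05 over the left-out libraries and 0.011 with the profile score, and the ExpOF minus control value of small minus large was -0.0012 by structural assignment in place of 0.0021. With a replicate block the d14 median was -0.22, and the block changed no call. In that fit 30 genes were lower at an unadjusted p under 0.05 in place of 42, and the share of all genes was not counted. With RNA integrity as a covariate the median was -0.26 in place of -0.23 on d14 and -0.16 in place of -0.11 on d14+3. That fit called 0 of the 77 genes on either day.

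The median of the interaction was -0.0040 with the profile score, 0.38 with all 24 libraries and 0.05 to 0.16 over the left-out libraries. Between the control groups it was 0.038 in the September cohort, -0.37 with all 24 libraries and -0.14 to -0.004 over the left-out libraries. Between the ExpOF groups it was -0.014 in July, -0.034 with the profile score, and -0.012 to 0.064 over the left-out libraries, the lowest without ExpOF d14+3 replicate 5. Between these groups the profile score fit called 1 of the 77 genes, Mrps21, against 142 of all 18992 genes tested. With the profile score, d14 values turned to 0.035 for Mrps18a, 0.0044 for Mrps18c, 0.026 for Mrps36, 0.039 for Mrpl58, 0.061 for Mrpl12 and 0.0075 for Mrpl23. Mrps30 had 0.057 in September, and Mrps5 -0.0016 after removal of the length trend and -0.014 after removal of the length and GC trends. The cause of these shifts was not tested. A fit of only the groups compared gives no interaction. Leaving out the choroid plexus libraries was chosen after seeing the data.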
